A study of Mus musculus with 2 samples.

Results

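Plasmacytoid dendritic cells (pDCs) were picked out of 2 droplet libraries of mouse pancreatic islets by raw transcript counts. A cell was a member when Siglech, Ccr9 and Klk1 together held at least 2 unique molecular identifiers (UMIs, each 1 captured transcript molecule) and Siglech held at least 1. The 8 genes Cd3d, Cd3e, Trac, Cd79a, Ms4a1, C1qa, C1qb and C1qc, which mark T cells, B cells and macrophages, had to be at 0. A barcode was considered if 200 or more genes were seen in it and mitochondrial UMIs made up no more than 20%, and the 5 islet hormone genes Ins1, Ins2, Gcg, Sst and Ppy had to stay under 2% of UMIs. The rule found 60 pDCs among 8813 kept barcodes, 42 in the HAMSAB library and 18 in the HAMS library. Because Siglech, Ccr9 and Klk1 chose the cells, their levels describe the selection and are not a result.

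The HAMSAB library came from islets of NOD mice fed HAMSAB, which is high-amylose maize starch carrying acetate and butyrate groups that gut bacteria release. The HAMS library came from islets of NOD mice fed the same starch without those groups. NOD mice develop autoimmune diabetes spontaneously, and the diets began at 5 weeks of age and ran for 5 weeks. There was 1 library per diet and the labels do not give how many mice it pooled, so no p-value is given, and every interval below is a 95% exact interval that covers counting error only.

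pDCs are the dendritic cells specialised for type I interferon: they carry toll-like receptors for RNA and DNA in their endosomes and can release interferon alpha within hours of meeting viral or self nucleic acids. Their identity depends on Tcf4, the gene of the E protein E2-2, which binds E-box sequences and holds off the conventional dendritic cell programme. In NOD mice and in human autoimmune diabetes, pDCs and interferon-induced transcripts have been studied as an early part of the islet infiltrate.

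Promoter sequences are shown for the pDC marker genes Siglech, Ccr9, Klk1 and Bst2, because E-boxes are the sequences that the Tcf4 protein and related factors bind. The window of Tcf4, also a marker gene, is not reported here. RefSeq promoter sequences on build GRCm38.p6 were cut to the 250 bases before the start annotated in RefSeq and are printed 5′ to 3′ on the gene's strand. Starts in the GENCODE M21 annotation can differ. There Siglech starts at 55768178 and Ccr9 at 123678439, so the windows of these genes reach into them. The window of Siglech is chr7:55767934-55768183 on the plus strand, that of Ccr9 is chr9:123766961-123767210 on the plus strand, that of Klk1 is chr7:44225110-44225359 on the plus strand and that of Bst2 is chr8:71537473-71537722 on the minus strand. Capitals mark the E-box CACCTG, its reverse complement written as CAGGTG, and the E-box CAGCTG, which reads the same on both strands.
Siglech: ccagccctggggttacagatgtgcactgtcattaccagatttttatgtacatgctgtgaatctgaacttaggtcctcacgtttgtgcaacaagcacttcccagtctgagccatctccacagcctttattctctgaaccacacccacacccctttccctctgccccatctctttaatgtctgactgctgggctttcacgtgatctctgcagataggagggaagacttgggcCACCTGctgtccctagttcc
Ccr9: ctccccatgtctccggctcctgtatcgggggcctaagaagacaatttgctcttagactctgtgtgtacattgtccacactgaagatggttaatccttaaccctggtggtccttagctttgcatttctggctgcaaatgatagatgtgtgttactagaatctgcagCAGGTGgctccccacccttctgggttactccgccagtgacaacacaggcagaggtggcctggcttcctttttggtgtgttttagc
Klk1: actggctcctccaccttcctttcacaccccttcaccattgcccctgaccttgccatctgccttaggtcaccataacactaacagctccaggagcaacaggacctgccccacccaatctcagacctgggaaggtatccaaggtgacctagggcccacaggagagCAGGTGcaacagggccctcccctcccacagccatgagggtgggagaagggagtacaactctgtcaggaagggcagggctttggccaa
Bst2: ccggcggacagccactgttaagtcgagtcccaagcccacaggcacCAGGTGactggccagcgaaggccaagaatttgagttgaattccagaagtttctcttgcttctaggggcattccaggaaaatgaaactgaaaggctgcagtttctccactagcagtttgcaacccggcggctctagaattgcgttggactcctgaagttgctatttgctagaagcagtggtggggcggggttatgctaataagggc
Each of the 4 windows held exactly 1 of these E-boxes, which read CACCTG in the window of Siglech, while the windows of Ccr9, Klk1 and Bst2 held it as CAGGTG. Of 32851 RefSeq promoter windows of the same length, 27.7% held at least 1 and 5.21% held at least 2. A match in a window describes the letters only, and no binding was measured.

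The libraries held 5022 barcodes and 4254040 UMIs in HAMSAB, against 4352 barcodes and 3599756 UMIs in HAMS, and 4628 and 4185 barcodes passed the filters. Kept barcodes had a median of 705 UMIs in HAMSAB and 704 in HAMS. The libraries shared 6 barcodes, and 0 of them belonged to a pDC. pDCs were shallower, with a median of 435.5 UMIs (319 to 1456) and 280 genes in HAMSAB and 509 UMIs (321 to 1444) and 308 genes in HAMS. Summed over cells, the pDCs gave 22061 UMIs in HAMSAB and 10618 in HAMS, so 1 UMI was worth 45.3 and 94.2 CPM, the unit in which a gene's UMIs are scaled so that all UMIs of the summed cells add up to 1000000. Most genes therefore rest on few molecules: of 5401 genes with a UMI in any pDC, 205 had at least 20 over both libraries, and these carried 51.1% of the UMIs.

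The marker genes outside the rule matched the label. Tcf4 was present in 34 of 42 HAMSAB pDCs (81.0%, 65.9 to 91.4) and 15 of 18 HAMS pDCs (83.3%, 58.6 to 96.4), with up to 10 and 7 UMIs in a cell. The surface antigen PDCA-1 or tetherin, encoded by Bst2, gave a UMI in 33.3% (19.6 to 49.5) of HAMSAB pDCs and 22.2% (6.41 to 47.6) of HAMS pDCs. Of all 60 cells, 54 carried Tcf4 or Bst2, and 51 carried at least 3 of 25 further pDC genes such as Rnase6, Atp1b1 and Irf8. These 51 were 38 of 42 HAMSAB cells and 13 of 18 HAMS cells. That share was not computed for other barcodes. Of the 25 genes, Lag3 and Mzb1 were at 0 in HAMSAB, and Ly6d, Cox6a2, Ly6c2, Cd209d, Paqr5 and Upb1 were at 0 in HAMS. The share of cells with Tcf4 or with Bst2 was far lower in hormone-rich barcodes, taken as a rough guide to free RNA. There Tcf4 stood at 19.9% in HAMSAB and 15.4% in HAMS and Bst2 at 0.913% and 1.38%. These barcodes had a median of 730.5 and 676.5 UMIs, deeper than the pDCs. In T cells Tcf4 was in 2.9% and 2.68%. B cells came nearer to the pDCs, with Tcf4 in 56.0% in HAMSAB and 59.0% in HAMS, at a median of 897 and 1082 UMIs. Free RNA was not measured apart from cells, and whether hormone-rich cells make Tcf4 themselves was not tested.

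**Figure D1:**
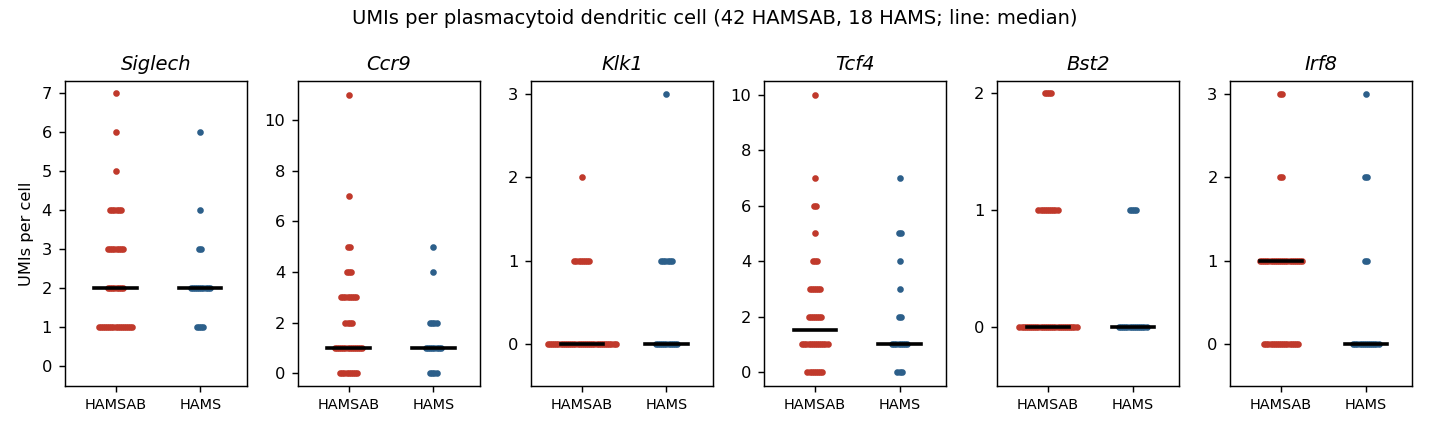
UMIs per cell (vertical axis, linear) for Siglech, Ccr9, Klk1, Tcf4, Bst2 and Irf8, with 1 point per pDC, 42 from HAMSAB on the left and 18 from HAMS on the right, and a black line at the median. Siglech runs from 1 to 7 UMIs in HAMSAB and from 1 to 6 in HAMS with a median of 2 in both, and Irf8 has a median of 1 in HAMSAB and 0 in HAMS.

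Within the rule, Siglech held a median of 2 UMIs per pDC in both libraries. The gut and thymus homing receptor gene Ccr9 was present in 78.6% of HAMSAB pDCs and 77.8% of HAMS pDCs, and the tissue kallikrein gene Klk1 in 21.4% and 38.9%. Klk1 belongs to a family of near-identical kallikrein genes, so its counts are uncertain. Siglech, Ccr9 and Klk1 occurred together in 7 HAMSAB and 5 HAMS cells, and Siglech stood alone in 7 and 2.

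Genes the rule did not use describe the cells on either side of the threshold. With exactly 2 rule UMIs, 14 pDCs of both libraries had Tcf4 in 78.6%, Bst2 in 28.6% and Irf8 in 21.4% of cells. The 46 pDCs with 3 or more had Tcf4 in 82.6%, Bst2 in 30.4% and Irf8 in 58.7%. Just outside, 13 barcodes with a single Siglech UMI and no Ccr9 or Klk1 had Tcf4 in 61.5%, Bst2 in 0% and Irf8 in 15.4%. A further 38 barcodes had at least 2 Ccr9 and Klk1 UMIs without Siglech, and there Tcf4 was in 36.8%, Bst2 in 5.26% and Irf8 in 21.1%. The same shares were 18.4%, 2.34% and 12.7% in the other low-hormone barcodes without Siglech.

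Markers of most other cell types were scarce in the pDCs, with exceptions given below. The rule itself set Cd3d, Cd3e, Trac, Cd79a, Ms4a1, C1qa, C1qb and C1qc to 0, so their zeros describe the selection. All listed markers of B cells, natural killer cells, neutrophils, mast cells and acinar cells (8, 4, 4, 3 and 4 genes) were at 0 in both libraries. Ighm, an immunoglobulin gene outside these lists, had 21 UMIs in HAMSAB and 5 in HAMS. It stood at 951.9 and 470.9 CPM, against 661.6 and 251.7 CPM in the other low-hormone cells. Of 7 T cell markers 6 were at 0, and the exception was Il7r, the interleukin 7 receptor gene, with 11 UMIs in HAMSAB and 5 in HAMS. Il7r stood at 498.6 CPM in HAMSAB pDCs and 470.9 CPM in HAMS pDCs, against 49.5 and 20.1 CPM in T cells of those libraries. Macrophage markers summed to 5 UMIs in HAMSAB and 1 in HAMS with C1qa, C1qb, C1qc and Adgre1 at 0 in both. Conventional dendritic markers summed to 8 and 8 UMIs with Xcr1 and Batf3 at 0. Their sum was 362.6 CPM in HAMSAB and 753.4 CPM in HAMS, against 367.9 and 386.6 CPM in the other low-hormone cells. The transitional dendritic markers Axl, Cx3cr1, Ltb and Cd8a had 7 and 1 UMIs, of which 6 and 1 were Cd8a. They stood at 317.3 and 94.2 CPM, against 89.8 and 107.3 CPM in the other low-hormone cells. Plasma cell markers came to 8 and 1 UMIs, of which 7 and 1 were Xbp1, with Jchain, Sdc1 and Tnfrsf17 at 0. Islet hormone and endocrine markers came to 19 and 10 UMIs, led by Ins1 with 9 and 4.

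The endothelial markers Pecam1, Cdh5 and Kdr had 11 UMIs in 9 HAMSAB pDCs and 0 in HAMS pDCs, and the fourth, Plvap, was at 0. The sum was 498.6 CPM (248.9 to 892.2) in HAMSAB and 0 CPM (0 to 347.4) in HAMS. Of the 11 UMIs 7 were Cdh5, the gene of vascular cadherin. The summed level was 55.0 CPM in the other low-hormone cells of HAMSAB and 87.9 CPM in those of HAMS. The part of these UMIs in the differences between the diets was not tested.

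A clustering of all kept barcodes placed 57 of the 60 pDCs in the cluster with the highest Siglech. That cluster held 68 HAMSAB and 34 HAMS cells, and 55.9% of them were pDCs. Siglech chose both the members and the cluster, so the overlap is no independent support for the label. An earlier clustering without gene scaling had put 47 of the 60 pDCs in a cluster of 954 cells. The 3 pDCs outside the Siglech cluster stand apart and carry a large share of the RNA. A HAMS cell with 1444 UMIs and 785 genes supplied 13.6% of the HAMS pDC UMIs and held all 61 Clu UMIs of HAMS, 4 of Sox9, 4 of Epcam and 6 of Cldn7, which are ductal and epithelial genes, beside 2 of Siglech and 1 each of Tcf4, Bst2 and Irf8. A HAMSAB cell with 1456 UMIs supplied 6.6% and held 596 UMIs of Actb, 47 of Pim1, 27 of Kdm6b and 16 of Cxcr4, with Tcf4, Bst2 and Irf8 at 0. A HAMSAB cell with 829 UMIs held 3 of Siglech, 2 of Pecam1, 1 of Cdh5 and 3 of S1pr1. Values without these 3 cells are given beside Cxcr4, Cd74, Kdm6b, Actb, Ppp1r16b, Sdc4 and the interferon-induced and MHC class II sums.

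pDCs were a larger share of the kept barcodes in HAMSAB than in HAMS. They made up 42 of 4628 kept barcodes in HAMSAB (0.908%, 0.655 to 1.22) and 18 of 4185 in HAMS (0.430%, 0.255 to 0.679), a ratio of 2.11 (1.19 to 3.89). The libraries also differed in how much endocrine tissue they held, since 1424 kept HAMSAB barcodes and 2398 kept HAMS barcodes had at least 2% hormone UMIs. Among barcodes under that limit, pDCs were 1.31% of 3204 in HAMSAB and 1.01% of 1787 in HAMS, a ratio of 1.30 (0.733 to 2.40).

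With immune cells alone as the denominator the ratio was nearer 1. Of the barcodes in 5 immune classes set by marker UMIs (pDCs, other dendritic cells, B cells, T cells and macrophages), pDCs were 4.34% of 968 in HAMSAB and 3.66% of 492 in HAMS, a ratio of 1.19 (0.668 to 2.19). Of pDCs and other dendritic cells together they were 33.1% of 127 and 24.7% of 73, a ratio of 1.34 (0.756 to 2.48). The interval of the ratio lay above 1 for all kept barcodes and spanned 1 for the 3 narrower denominators. The difference in the share of kept barcodes was 0.477 percentage points. It was 0.0535 points among cells of at least 500 genes, where 3 HAMSAB and 2 HAMS members remained, and 0.0609 points when barcodes were thinned to 500 UMIs before members were chosen, with 9 and 6 members.

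**Figure D2:**
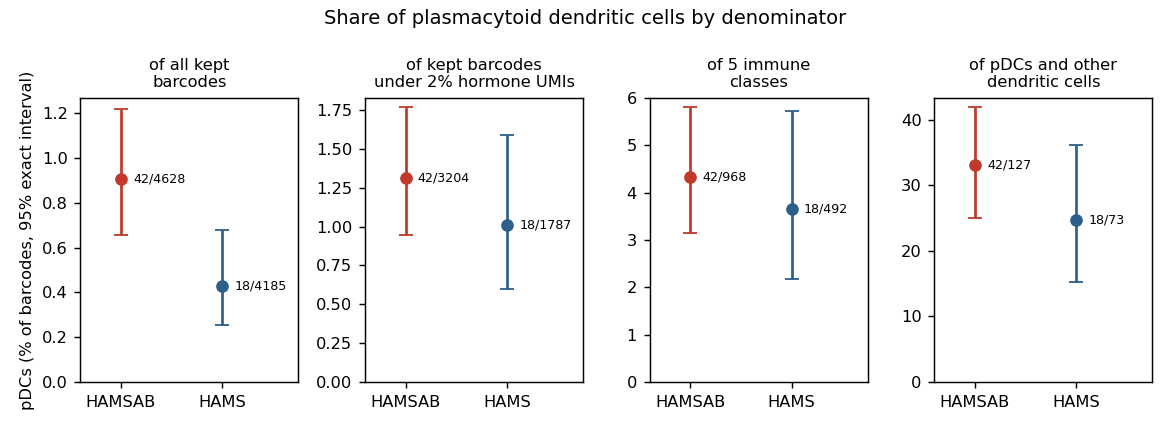
Share of pDCs in percent (vertical axes, linear, from 0) by denominator, HAMSAB left and HAMS right in each panel, with 95% exact binomial intervals and the counts beside each point. The shares of all kept barcodes are 0.908% in HAMSAB and 0.430% in HAMS, and the intervals of HAMSAB and HAMS overlap in all 4 panels.

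The most abundant pDC transcripts were general ones. Actb, the gene of cytoplasmic beta actin, had 5166 UMIs in HAMSAB and 1814 in HAMS, that is 23.4% and 17.1% of all pDC UMIs. The nuclear RNA Malat1 had 304 and 188 UMIs, the kinase gene Pim1 250 and 109, the antiproliferative gene Btg1 143 and 56, and the histone demethylase gene Kdm6b 146 and 43. The others among the 10 most abundant were Rps25, Cd74, Ptma, Gm2a and mt-Co1, at 3581 to 5575 CPM in HAMSAB and 4709 to 7158 CPM in HAMS. Siglech, at 4488 and 3767 CPM, and Tcf4, at 4125 and 3390 CPM, were of the same order.

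To see which genes were high in pDCs, summed levels were set against all other low-hormone barcodes of the same library. Genes of the rule are left out, and since the members are defined by related genes these values are a description. Of 203 genes with 20 UMIs, 57 were at least 2-fold higher in HAMSAB pDCs (28.1%) and 58 in HAMS pDCs (28.6%), 45 of them in both libraries. At least 2-fold lower were 7 in HAMSAB (3.45%) and 12 in HAMS (5.91%), 4 of them in both. Since a gene had to reach 20 UMIs in the pDCs to be counted, genes low in them are seldom among the 203, and the counts say nothing of the balance.

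Of the 20 genes named as highest over the other cells, Grn, the gene of progranulin, a lysosomal protein, stood at 1179 CPM in HAMSAB pDCs and 90.2 CPM in the other cells, and at 1695 against 99.8 CPM in HAMS, log2 differences of 3.71 and 4.09. Rnase6, a secreted ribonuclease gene, stood 4.10 and 4.18 higher on the log2 scale in HAMSAB and HAMS pDCs than in the other cells of each library. Ctsl, the gene of cathepsin L, a lysosomal protease that can process toll-like receptors, stood 3.79 and 4.26 higher. Snx18, a sorting nexin gene, and Mpeg1, the gene of the pore-forming protein perforin-2, stood 3.50 and 3.86 higher in HAMSAB and 3.09 and 3.53 higher in HAMS.

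Lair1, the gene of an inhibitory collagen receptor, had 23 UMIs in HAMSAB pDCs (1043 CPM against 35.8 CPM in the other cells) and 6 in HAMS pDCs (565.1 against 28.2 CPM). P2ry14, the receptor gene for UDP-glucose, was 3.95 and 4.0 higher on the log2 scale, Sema4b, a semaphorin gene, 3.42 and 3.90, and the adhesion gene Cadm1 3.24 and 3.37. Atp1b1, the gene of the sodium pump's beta subunit, was 3.03 and 3.69 higher. Rell1, Tex2, Rnd3, Zfp691, Rnf122, Smc6 and Irf2bp2, the last of them the gene of a partner of the factor IRF2, were 2.42 to 3.91 higher in HAMSAB pDCs and 2.51 to 4.47 higher in HAMS pDCs.

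**Figure D3:**
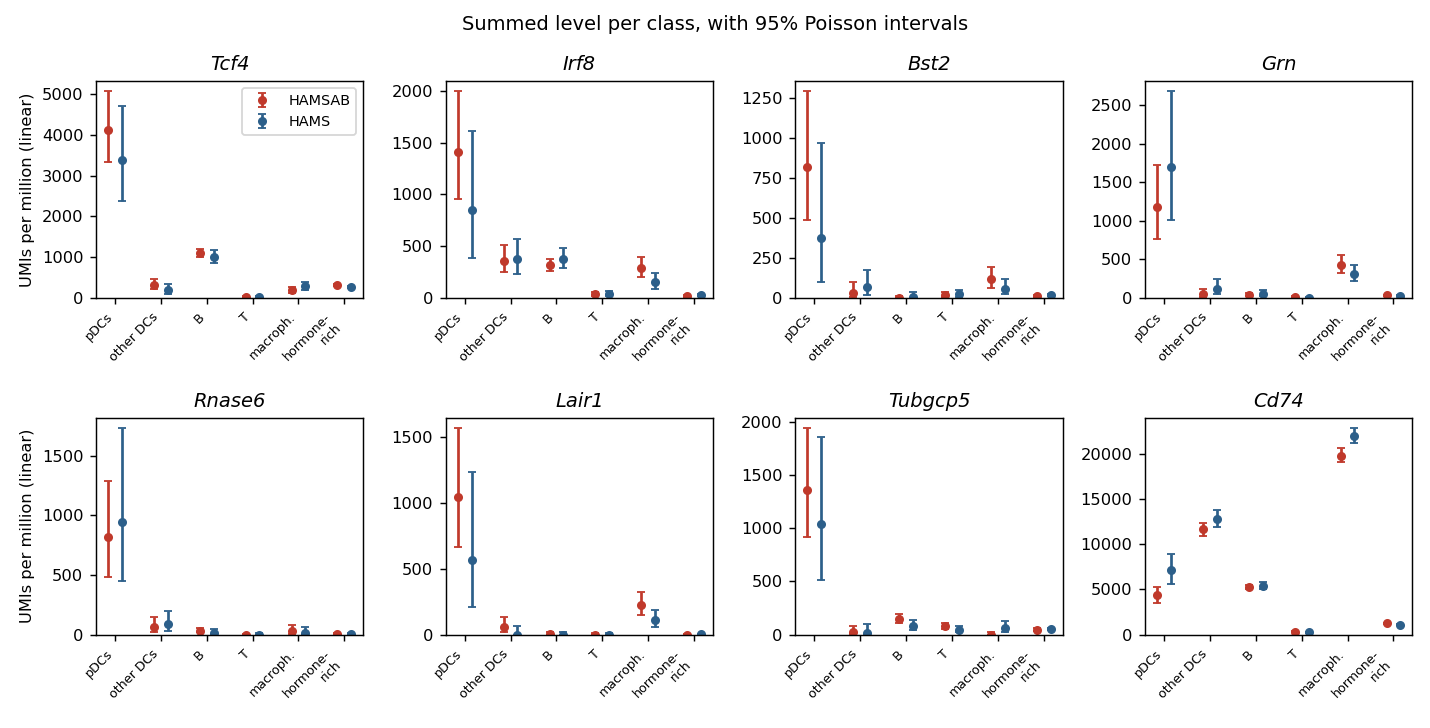
Summed level of 8 genes in CPM (vertical axes, linear, from 0) in pDCs, other dendritic cells, B cells, T cells, macrophages and hormone-rich barcodes, HAMSAB left of HAMS, with exact Poisson intervals. Tcf4, Irf8, Bst2, Grn, Rnase6, Lair1 and Tubgcp5 have their highest points in pDCs, and Cd74 has its highest points in macrophages, at 19770 CPM in HAMSAB and 21960 CPM in HAMS.

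Tubgcp5 was the gene highest over the other cells by the interval bound nearest 0. It encodes a part of the gamma-tubulin ring complex, from which microtubules grow, and had 30 UMIs in 16 of 42 HAMSAB pDCs and 11 UMIs in 7 of 18 HAMS pDCs. The levels were 1360 and 1036 CPM, against 69.9 and 45.2 CPM in the other low-hormone cells, 148.7 and 81.0 CPM in B cells and 79.3 and 44.3 CPM in T cells.

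Tubgcp5 lies close to Siglech, a gene of the rule. In the GENCODE M21 annotation of GRCm38, Siglech lies at chr7:55768178-55778925 and Tubgcp5 at chr7:55794154-55831677, both on the plus strand, with 15.2 kb between the end of Siglech and the start of Tubgcp5. No other named gene lies within 100 kb of a gene of the rule. Tubgcp5 had a UMI in 38.1% (23.6 to 54.4) of HAMSAB pDCs and 38.9% (17.3 to 64.3) of HAMS pDCs. Among barcodes with Siglech outside the pDCs it was in 2 of 15 in HAMSAB and 3 of 9 in HAMS, and in kept barcodes without Siglech in 4.88% and 3.32%. Whether transcripts that begin in Siglech are counted under Tubgcp5 was not tested.

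The transcription factor genes of pDC and dendritic cell development stood together at 10380 CPM (9079 to 11820) in HAMSAB and 9324 CPM (7578 to 11350) in HAMS, of 22 listed genes with 20 seen. The log2 ratio of the sums was 0.15 (−0.19 to 0.51). Tcf4 had 91 and 36 UMIs, a log2 ratio of 0.28 (−0.29 to 0.88). In B cells, where E proteins are also used, Tcf4 stood at 1101 and 1004 CPM, and in T cells at 24.8 and 16.1 CPM.

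Irf8, the gene of a factor needed for dendritic cell development, was seen in 25 of 42 HAMSAB pDCs (59.5%, 43.3 to 74.4) and 5 of 18 HAMS pDCs (27.8%, 9.69 to 53.5). In the 14 HAMSAB and 10 HAMS pDCs deep enough to be thinned to 500 UMIs Irf8 was seen in 6 of 14 HAMSAB cells (42.9%, 17.7 to 71.1) and 3 of 10 HAMS cells (6.67% to 65.2%), and the log2 ratio of the sums was −0.07. With every cell thinned to 300 UMIs, a depth chosen after seeing the data, the Irf8 shares were 45.2% (29.8 to 61.3) and 11.1% (1.38 to 34.7), against 8.40% and 9.02% in B cells and 0.351% and 0.585% in hormone-rich barcodes thinned alike. The summed Irf8 levels of 1405 and 847.6 CPM gave a log2 ratio of 0.73 (−0.38 to 1.99), whose interval spans 0.

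Other factors were thinly sampled. Runx2, which in mice is needed for pDCs to leave the bone marrow, had 23 UMIs in HAMSAB and 8 in HAMS, Bcl11a 12 and 5, Mef2c 12 and 5, Zeb2 7 and 2, and Spib 5 and 3. Runx2 stood at 1043 and 753.4 CPM, against 145.9 and 136.8 CPM in the other low-hormone cells. Irf7, the gene of the master factor of interferon alpha, had 1 UMI in HAMSAB and 0 in HAMS. Batf3 and Zfp366, used by conventional dendritic cells, were at 0 in both.

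All 30 pDC surface and identity genes beyond the rule had a UMI in at least 1 library. Their sum was 11110 CPM (9758 to 12590) in HAMSAB pDCs and 9889 CPM (8088 to 11970) in HAMS pDCs, a log2 ratio of 0.17 (−0.17 to 0.51). Against the other low-hormone cells the sum was 3.57 higher in HAMSAB and 3.46 higher in HAMS on the log2 scale. Of the 10 counted genes 4 were higher and 6 lower in HAMSAB. At least 2-fold higher were Bst2 and Ptprs, 2 of 10, where 10.7% of all 205 counted genes were that much higher and 4.88% that much lower. Ptprs encodes a receptor phosphatase that restrains pDCs and had 18 UMIs in HAMSAB and 2 in HAMS (log2 ratio 2.12, 0.05 to 5.27). Plac8 had 20 and 6 UMIs and Lair1 23 and 6, with log2 ratios of 0.68 and 0.88 whose intervals span 0.

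Nucleic acid sensing, the entry to the interferon response, was thinly sampled, and its only genes with 20 UMIs were those of the proteases cathepsin B, S and L. The 32 genes measured summed to 103 UMIs in HAMSAB and 50 in HAMS, a log2 ratio of −0.01 (−0.51 to 0.51). Ctsb had 16 and 8 UMIs, Ctss 15 and 7, and Ctsl 13 and 7. Pld4, an endosomal nuclease gene, had 14 and 4. Unc93b1, whose protein carries toll-like receptors to endosomes, had 11 UMIs in HAMSAB and 1 in HAMS, with a log2 ratio of 2.40 (−0.38 to 7.83). Tlr7, the receptor gene for single-stranded RNA, had 3 and 0 UMIs, and Tlr9, the receptor gene for CpG DNA, was at 0 in both, as were Tlr3, Tlr12, Myd88 and Irf3. A count of 0 has an exact upper bound of 167.2 CPM in HAMSAB and 347.4 CPM in HAMS. Levels below these could be missed at this depth.

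Interferon transcripts themselves were not detected. Ifnb1, Ifnab, the 8 listed Ifna genes, Ifnl2 and Ifnl3 were all at 0 in both libraries, as were Il6, Il12b, Il10 and the granzyme gene Gzmb. Interferon alpha genes are near-identical copies, so single counts could be lost between them. The 25 cytokine and chemokine genes summed to 18 UMIs in HAMSAB and 11 in HAMS. Of the 11 HAMS UMIs 8 came from 1 cell. The chemokine gene Ccl4 had 6 UMIs in 2 HAMSAB cells and 0 in HAMS, and Tnf, the gene of tumour necrosis factor, had 5 and 1.

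Interferon-induced genes were higher in HAMSAB pDCs. Of 48 such genes measured 27 had a UMI, and the sum was 109 UMIs in HAMSAB (4941 CPM, 4057 to 5960) and 24 in HAMS (2260 CPM, 1448 to 3363). The log2 ratio was 1.13 (0.48 to 1.83). Per cell the list held a median of 2.5 UMIs in HAMSAB and 1 in HAMS, with a range of 0 to 9 and 0 to 7. At least 3 UMIs were found in 21 of 42 HAMSAB cells and 2 of 18 HAMS cells. The cells of the libraries overlapped, and 12 of 18 HAMS cells had at least 1 UMI.

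No single gene carried the interferon list. Bst2 (18 UMIs in HAMSAB, 4 in HAMS) and Ly6a (19 and 3), the gene of the surface protein Sca-1, were the only members with 20 UMIs, and both were at least 2-fold higher, as were 10.7% of all 205 counted genes. Their log2 ratios were 1.12 (−0.49 to 3.14) and 1.61 (−0.16 to 4.01), with intervals that span 0. Without Bst2 and Ly6a the sum was 72 and 17 UMIs, a log2 ratio of 1.03 (0.25 to 1.88). Samhd1, the gene of a nucleotide hydrolase, had 9 UMIs in HAMSAB and 0 in HAMS. With HAMS set to 3 counts it was 0.53 higher on the log2 scale, a value without counting error. Dtx3l had 10 and 2 UMIs, Trim30a 6 and 1, Gbp7 5 and 0, and Ly6e 10 and 5. The classical genes Ifit2, Ifit3, Oasl2, Rtp4, Zbp1 and Xaf1 were at 0 in both, and Isg15, Ifit1 and Rsad2 had at most 1 UMI in a library.

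The same list was summed in the other immune classes. The log2 ratio of the sums was −0.34 (−0.58 to −0.10) in other dendritic cells, 0.05 (−0.16 to 0.25) in B cells, 0.24 (0.08 to 0.40) in T cells and 0.44 (0.30 to 0.59) in macrophages. The level itself in HAMSAB pDCs was 0.46 (0.18 to 0.74) above the other low-hormone cells on the log2 scale, and in HAMS pDCs the same difference was −0.84 (−1.48 to −0.26). Whether the diets act differently on the list in pDCs cannot be tested with 1 library per diet. Markers that moved along with this list were the endothelial genes given above, and mitochondrial UMIs were 1.07% of pDC UMIs in HAMSAB and 1.70% in HAMS. Their part was not tested. Without the 3 pDCs outside the Siglech cluster the log2 ratio was 1.37, and among the 3 HAMSAB and 2 HAMS pDCs with at least 500 genes it was 0.12.

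**Figure D4:**
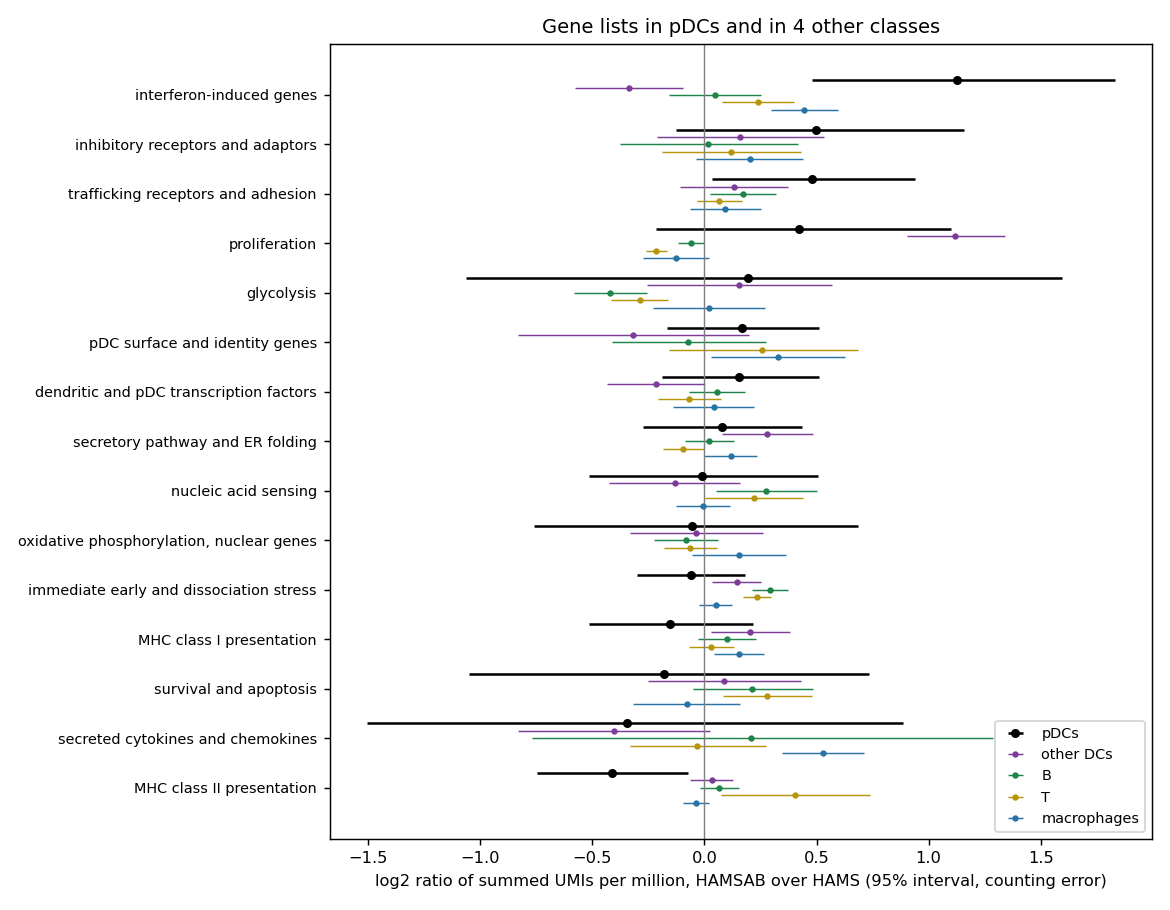
Log2 ratio of summed CPM, HAMSAB over HAMS (horizontal axis), for 15 gene lists in pDCs (black) and 4 other immune classes, with 95% counting intervals. In pDCs the interferon-induced list lies at 1.13 with its interval above 0, and the MHC class II list lies at −0.41 with its interval below 0.

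MHC class II presentation was lower in HAMSAB pDCs. The 14 genes summed to 192 UMIs in HAMSAB (8703 CPM, 7516 to 10030) and 123 in HAMS (11580 CPM, 9628 to 13820), a log2 ratio of −0.41 (−0.75 to −0.07). Per cell the list held a median of 3 and 6 UMIs. The ratio was 0.03 in other dendritic cells, 0.07 in B cells, 0.40 in T cells and −0.04 in macrophages. Without the 3 pDCs outside the Siglech cluster the ratio in pDCs was −0.53. Without the lineage condition, which adds 2 HAMSAB cells and 1 HAMS cell, it was −0.05, and it was 0.87 among the 3 HAMSAB and 2 HAMS pDCs with at least 500 genes.

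Among the class II genes the lower level was that of Cd74, the invariant chain that guides class II molecules to endosomes. Cd74 was seen in 31 of 42 HAMSAB cells and 16 of 18 HAMS cells, with a median of 2 UMIs (0 to 15) and 4 UMIs (0 to 14), so the cells overlapped widely. The sums of 96 and 76 UMIs (4352 and 7158 CPM) gave a log2 ratio of −0.72 (−1.17 to −0.26), and the ratio was −0.89 without the 3 pDCs outside the Siglech cluster and −0.26 without the lineage condition. H2-Aa, H2-Ab1 and H2-Eb1, the genes of the class II chains, had log2 ratios of −0.02, 0.04 and −0.32 with intervals that span 0. pDCs carried less Cd74 than other dendritic cells, at 11620 and 12770 CPM, and macrophages, at 19770 and 21960 CPM. B cells stood at 5307 CPM in HAMSAB, above the pDCs there (4352 CPM, 3525 to 5314). In HAMS they stood at 5404 CPM, below the pDCs (7158 CPM, 5639 to 8959). The costimulation genes Cd80, Cd86 and Cd40 were at 0 in the pDCs of both libraries.

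MHC class I presentation held 183 UMIs in HAMSAB and 98 in HAMS, a log2 ratio of −0.15 (−0.52 to 0.22). H2-K1 and H2-D1, the genes of the class I heavy chains, had 28 and 11 and 30 and 15 UMIs, and B2m, the light chain gene, 30 and 20. Reads of H2 genes can be shared between near-identical copies, so their counts are uncertain. The secretory pathway, which is large in pDCs, summed to 217 and 99 UMIs over 34 of 40 genes seen, a log2 ratio of 0.08 (−0.27 to 0.44). Calr, a calcium-binding chaperone gene, had 32 and 23 UMIs, Hsp90b1, the gene of the chaperone that folds toll-like receptors, 33 and 8, and Hspa5 19 and 9, each with an interval that spans 0.

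Among trafficking genes Cxcr4 stood apart. It encodes the receptor for CXCL12, a chemokine that helps keep developing pDCs in bone marrow, and lies at chr1:128588199-128592293 on the minus strand (GRCm38). Cxcr4 had 92 UMIs in 33 of 42 HAMSAB cells and 20 UMIs in 6 of 18 HAMS cells. The highest cell held 16 UMIs in HAMSAB and 7 in HAMS, and the median was 1 and 0. The summed levels were 4170 CPM (3362 to 5114) and 1884 CPM (1151 to 2909), a log2 ratio of 1.15 (0.44 to 1.92).

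The share of cells with Cxcr4 depended on the cells used. In the 14 HAMSAB and 10 HAMS pDCs thinned to 500 UMIs it was seen in 9 of 14 HAMSAB cells (64.3%, 35.1 to 87.2) and 5 of 10 HAMS cells (18.7% to 81.3%), with intervals that overlap widely. With every cell thinned to 300 UMIs, Cxcr4 was found in 66.7% (50.5 to 80.4) of HAMSAB pDCs and 33.3% (13.3 to 59.0) of HAMS pDCs, and unthinned in 78.6% and 33.3%. In hormone-rich barcodes thinned alike the shares were 2.95% and 2.93%. They were 54.2% and 60.4% in T cells, 59.2% and 56.8% in macrophages and 45.4% and 36.9% in B cells. Other dendritic cells had 30.6% and 27.3%. Thinned to 500 UMIs, B cells had Cxcr4 in 68.4% (62.9 to 73.7) in HAMSAB and 48.6% (38.9 to 58.4) in HAMS. At that depth the shares were 67.2% and 65.2% in T cells, 65.0% and 68.8% in macrophages and 37.2% and 32.0% in other dendritic cells. Other classes had log2 ratios of 0.20 in other dendritic cells, 0.16 in B cells, −0.05 in T cells and 0.06 in macrophages. Without the 3 pDCs outside the Siglech cluster, 1 of which held 16 of the Cxcr4 UMIs, the log2 ratio was 0.80, and with the 2 HAMSAB cells and 1 HAMS cell that the lineage condition removes it was 0.45. The 19 trafficking genes without Ccr9 summed to 165 and 57 UMIs, a log2 ratio of 0.48 (0.04 to 0.94), and Cxcr4 made up 50.5% of them. Cd47, the gene of the signal that protects a cell from being eaten, had 26 and 21 UMIs (log2 ratio −0.75, −1.63 to 0.16), and Cd44, the hyaluronan receptor gene, 13 and 2.

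Inhibitory receptors and their adaptors, which damp interferon release, summed without Siglech to 85 UMIs in HAMSAB and 29 in HAMS, a log2 ratio of 0.50 (−0.13 to 1.16). Tyrobp, the gene of the adaptor DAP12 through which Siglec-H signals, had 11 and 6 UMIs. Ptpn6, the gene of the phosphatase SHP-1, had 9 and 2, and Lag3 had 0 and 1. The sum was 1.90 (1.57 to 2.21) above the other low-hormone cells in HAMSAB and 1.21 (0.63 to 1.74) in HAMS.

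Receptors for the acids that HAMSAB delivers were not detected. Ffar2, Ffar3 and Hcar2, which encode receptors for short-chain fatty acids and butyrate, and the transporter genes Slc16a1 and Slc5a8 were at 0 in the pDCs of both libraries. Among the histone deacetylase genes, whose products butyrate inhibits, Hdac1 had 5 UMIs in HAMSAB and 0 in HAMS, Hdac5 had 1 and 0, and Hdac6 had 0 and 1. At this depth a level under the exact upper bound of a count of 0 given above could be missed.

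Metabolic, cycling and survival genes were low or differed little. Glycolysis genes summed to 19 and 8 UMIs and nuclear genes of oxidative phosphorylation to 52 and 26, with log2 ratios of 0.19 (−1.06 to 1.59) and −0.05 (−0.76 to 0.68). Against the other low-hormone cells the log2 difference of the glycolysis sum was −1.19 in HAMSAB pDCs and −1.52 in HAMS pDCs. Of 24 proliferation genes 8 had a UMI, 79.2% of those UMIs were Tubb5, a beta tubulin gene, and Mki67 and Top2a were at 0. Survival genes held 33 and 18 UMIs, led by Mcl1 with 18 and 6.

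By the interval bound nearest 0, Tubb5 was also the gene lowest in pDCs against the other cells, at 2901 CPM in HAMSAB pDCs and 9074 CPM in the other cells, and at 1884 against 8412 CPM in HAMS. Set and Cbx3, chromatin protein genes, had log2 differences of −1.44 and −1.50 from the other cells in HAMSAB and −1.49 and −1.57 in HAMS. Tmsb4x and Actg1, genes of actin and its binding, had −0.98 and −1.01 in HAMSAB and −1.19 and −1.18 in HAMS. Basp1, H2-Ab1, H2-Eb1 and Cd74 had −0.87 to −0.67 in HAMSAB and −1.02 to −0.41 in HAMS. Set against all other kept barcodes, hormone-rich ones included, H2-Ab1 and Cd74 were 0.07 and 0.54 higher in HAMS pDCs.

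Across all 205 counted genes the median log2 ratio in pDCs was 0.04. This centre depends on the scaling and does not measure likeness between the diets. At least 2-fold higher in HAMSAB were 22 genes (10.7%) and at least 2-fold lower 10 (4.88%), together 15.6%. Of these 32 genes 68.8% were higher in HAMSAB, a split of 56.7% with trimmed mean scaling and 82.1% with mitochondrial, ribosomal and Actb UMIs left out of the total, which moved the median of all genes to 0.16. The interval of the ratio lay above 0 for 11 genes and below 0 for 13, and 6 and 8 genes met both conditions. The 205 genes include Siglech and Ccr9, which chose the cells. Ccr9 (0.73, 0.07 to 1.43) is among the 11, and there it describes the selection. Neither was 2-fold apart. These counts come from counting error within 1 library per diet, and mice within a diet are not represented in them.

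Other genes higher in HAMSAB pDCs had larger sums. Skil, the gene of SnoN, a corepressor of TGF-beta signalling, had 92 UMIs in 34 HAMSAB cells and 24 UMIs in 14 HAMS cells, a log2 ratio of 0.88 (0.22 to 1.60), and the ratio over the whole Siglech cluster was 0.25. Kdm6b had a ratio of 0.71 (0.21 to 1.24) and was seen in 27 of 42 HAMSAB cells and 13 of 18 HAMS cells, so the share of cells was not higher in HAMSAB. Without the 3 pDCs outside the Siglech cluster the Kdm6b ratio was 0.41, and over the whole cluster it was 0.05. Eif4a1, the gene of a translation initiation helicase, had 81 and 23 UMIs and a ratio of 0.76 (0.08 to 1.50).

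Genes with fewer molecules followed. Cpeb4, an RNA-binding protein gene, and Wac each had 19 UMIs in HAMSAB and 2 in HAMS, a log2 ratio of 2.19 (0.14 to 5.34). Tspan13, a tetraspanin gene, had 25 UMIs in 21 HAMSAB cells and 4 UMIs in 3 HAMS cells, a ratio of 1.59 (0.05 to 3.57), and −0.16 in the 14 HAMSAB and 10 HAMS pDCs deep enough to be thinned to 500 UMIs. Ahnak had 33 and 7 UMIs and Ywhaz, a 14-3-3 protein gene, 47 and 12, with intervals that reach just below 0. Hsph1, a heat shock chaperone gene with fewer than 20 UMIs, was singled out after its values were seen. It had 14 UMIs in HAMSAB and 0 in HAMS. With HAMS set to 3 counts it was 1.17 higher on the log2 scale, a value without counting error.

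Actb differed between the diets in pDCs and took part in the scale of every other gene. Its level was 234200 CPM in HAMSAB and 170800 CPM in HAMS, a log2 ratio of 0.45 (0.38 to 0.53). Per cell Actb took a median of 23% of UMIs (4.62 to 40.9) in HAMSAB and 16.6% (6.81 to 32.4) in HAMS, so the cells overlapped. The Actb ratio was 0.295 without the 3 pDCs outside the Siglech cluster and 0.089 without the lineage condition. In the other classes the Actb ratio was −0.09 in other dendritic cells, −0.08 in B cells, −0.16 in T cells and −0.04 in macrophages.

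**Figure D5:**
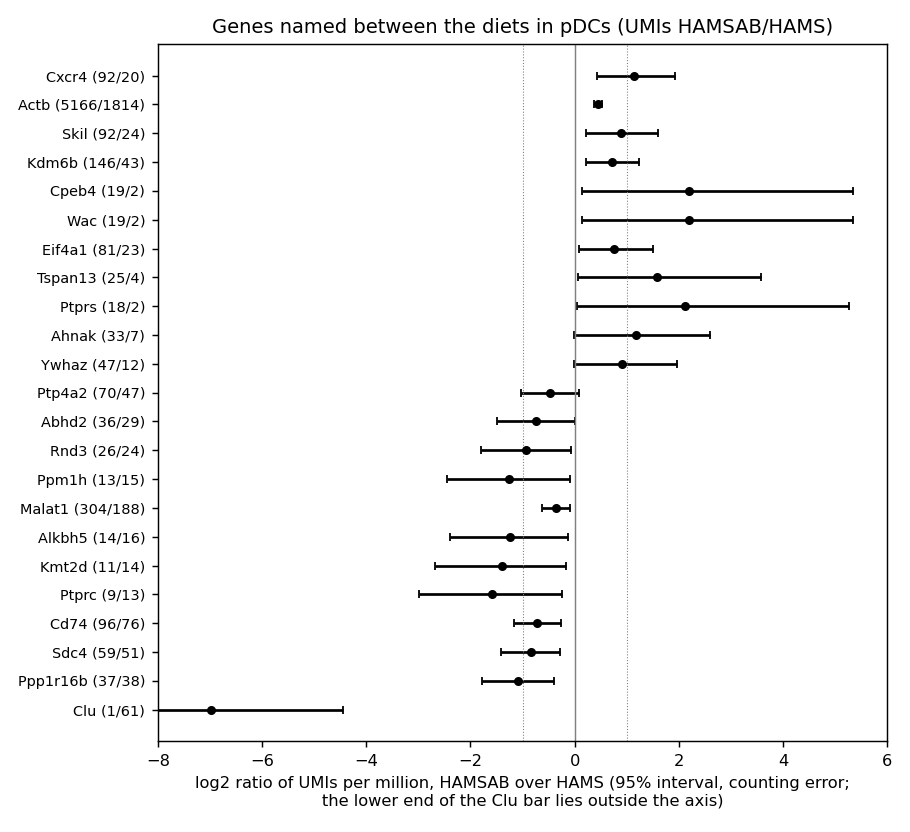
Log2 ratio of CPM in pDCs, HAMSAB over HAMS (horizontal axis), for 23 genes named between the diets, with 95% counting intervals and the UMIs in HAMSAB and HAMS beside each name. Cxcr4 (1.15) and Actb (0.45) stand at the top of the genes higher in HAMSAB, and Clu (−6.99), all of whose 61 HAMS UMIs are from 1 cell, lies lowest.

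Genes lower in HAMSAB pDCs were led by the UMIs of 1 cell. Clu, the gene of the secreted chaperone clusterin, had 1 UMI in HAMSAB and 61 in HAMS, all 61 in the HAMS cell with ductal genes, so its log2 ratio of −6.99 describes that cell. The early genes Egr1, with 1 and 9 UMIs, Klf6, with 5 and 9, and Rhob, with 0 and 7, also had 6, 7 and 7 of their HAMS UMIs there.

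Other genes lower in HAMSAB were seen in more cells, but 1 HAMS cell could still hold a large part. It held 23.7% of the Ppp1r16b UMIs of HAMS, 17.6% of those of Sdc4 and 30.8% of those of Ptprc, not always the same cell. Ppp1r16b, the gene of a regulatory subunit of protein phosphatase 1, had 37 UMIs in 25 HAMSAB cells and 38 UMIs in 15 HAMS cells, a log2 ratio of −1.09 (−1.79 to −0.40), and −1.23 without the 3 pDCs outside the Siglech cluster. Sdc4, the gene of the surface proteoglycan syndecan-4, had 59 UMIs in 30 cells and 51 in 16, a ratio of −0.84 (−1.41 to −0.28), and −0.72 without those 3 cells. Ptprc, the gene of the leukocyte phosphatase CD45, had 9 and 13 UMIs and a ratio of −1.59 (−2.99 to −0.25). Malat1 had a ratio of −0.36 (−0.63 to −0.09), with 53 of 188 HAMS UMIs in 1 cell, and stood at 0.10 over the whole Siglech cluster, 0.09 without the lineage condition and 1.63 among pDCs with at least 500 genes.

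Kmt2d, the gene of a histone methyltransferase, had 11 and 14 UMIs (log2 ratio −1.40, −2.69 to −0.16), and Alkbh5, the gene of an RNA demethylase, 14 and 16 (−1.25, −2.39 to −0.12). The Alkbh5 ratio was 0.74 when barcodes were thinned before members were chosen. Ppm1h, a phosphatase gene, had 13 and 15 UMIs, and Rnd3 26 and 24, with ratios of −1.26 and −0.94 and intervals below 0. Abhd2 and Ptp4a2 had ratios of −0.74 and −0.48 with intervals that span 0. A single HAMS cell held 37.5% of the Rnd3 UMIs of HAMS, and for Abhd2 and Ppm1h the highest cell held 34.5% and 26.7%. The mitochondrial gene mt-Co1, with 79 and 71 UMIs, had a ratio of −0.90 (−1.38 to −0.42).

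Immediate early and dissociation genes gave 424 and 213 UMIs, a log2 ratio of −0.06 (−0.30 to 0.18), so their total did not separate the libraries beyond counting error. Btg1 had 143 and 56 UMIs and Zfp36l1 55 and 28, and 31.0% of the HAMS sum came from 1 cell.

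The authors' deposited table for pDCs holds 7 genes, all lower in HAMSAB and all with the authors' deposited adjusted p-value of 1. For Cd74 the authors' deposited table gives a log2 fold change of −0.74, and the summed UMIs above gave −0.72. For Rpl29, a ribosomal protein gene, the authors' deposited table gives −1.24, and 13 UMIs in HAMSAB and 15 in HAMS gave −1.26 (−2.45 to −0.09). For Rps10 the authors' deposited table gives −2.35, and 2 UMIs in HAMSAB and 8 in HAMS gave −3.06 (−6.33 to −0.73). The authors' deposited table also lists Glcci1, Ythdf2, Ctsh and Rpl8, with −1.68, −1.60, −1.79 and −1.03, where the summed UMIs of the 60 cells gave −2.06, −1.06, −1.47 and −1.64. The direction was the same for all 7, but both sets come from the same libraries and are not independent.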

How the data were processed

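Islet cells of each diet were measured as 1 droplet single-cell RNA library, and libraries were grouped by the treatment label. Capture used a Chromium 3' kit, per the labels' protocols. Cell Ranger 5.0.0 made the matrices, per the file headers, and the authors deposited its raw counts of UMIs per gene and barcode. The submitters' processing notes name Seurat, mm10 and GRCm38. How cells were called, and with which annotation, was not given in the sources used here. Of the authors' own comparisons the pDC table is quoted, and its log2 fold changes and p-values are the authors' values over cells, by a test not given in the sources used here.

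Barcodes were filtered and members found as the report states. Raw UMIs of the members were summed per library and divided by their total (CPM), with exact Poisson intervals, and log2 ratios have exact conditional binomial intervals. Shares have Clopper-Pearson intervals. Where 1 library had 0 UMIs the ratio was set against 3 counts there. That value takes the other count as exact, so it is not the end of an interval. With both at 3 or fewer no ratio is given. A gene was counted if the pDCs of both libraries together held 20 or more of its UMIs, and a 2-fold difference was called. With 1 library per diet no test across mice exists, so no p-value was computed.

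Other classes were set by at least 2 marker UMIs among barcodes under the same filters. For shares, cells were thinned to 300 or 500 UMIs. Leiden clustering (scanpy 1.11.5, 2000 variable genes, 30 components, resolution 1) served as an alternative. Its gene scaling was chosen after a clustering without scaling had put 47 of the 60 pDCs in a cluster of 954 cells. Scrublet marked 0.0454% of cells, so it did not work here, and doublets were not removed. The code was tested on simulated counts. scipy 1.17.1 and numpy 2.4.6 were used.

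The members and the 16 gene lists were chosen with earlier results of these data known. Named between the diets were the 12 genes highest and 12 lowest by the interval bound nearest 0, and against other cells the 20 highest and 10 lowest. Mitochondrial and ribosomal protein genes, Gm and Rik names, receptor segments, haemoglobins, pancreatic enzymes and genes at under 0.1 of their highest class level were left out. Some genes that these rules take are not reported here. The 10 most abundant genes, markers, list members and the deposited genes were also named. Mx1, Mx2 and Sting1 are not among the 32285 gene names.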

Additional observations from a re-analysis of the deposited data

Results flagged for a closer look

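Actb differed between the diets in opposite directions in pDCs and in the other immune classes. In pDCs the log2 ratio of HAMSAB over HAMS was 0.45 (0.38 to 0.53), with 5166 UMIs in HAMSAB and 1814 in HAMS. In other dendritic cells, B cells, T cells and macrophages the Actb ratios were −0.09, −0.08, −0.16 and −0.04, each with a counting interval below 0. The difference was not tested, since each diet has 1 library. Without the 3 pDCs outside the Siglech cluster the ratio in pDCs was 0.295, and without the lineage condition it was 0.089.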

How the results depend on the processing

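No paired analysis was possible because each diet has 1 library, and no library was left out for the same reason. The pDCs are 42 and 18 shallow cells, most genes hold under 20 UMIs, and the spread between mice is unknown. Cxcr4 was higher in HAMSAB under 15 of 15 alternatives (log2 ratio 0.415 to 1.57), and Cd74 was lower under 15 of 15 (−0.954 to −0.143). The sum of interferon-induced genes was higher under all of them (0.12 to 1.51). The alternatives share the same 2 libraries and many of the same cells, so they are not independent checks. A hormone limit of 5% returned the same 42 and 18 cells. Where a value below moved, the cause was not tested, but the settings with fewer cells rest on fewer UMIs.

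The main counts were 22 genes at least 2-fold higher and 10 lower in HAMSAB. They were 1 and 3 with 50 UMIs as the minimum, 174 and 179 with 1 UMI in both libraries, and 7 and 4 with members thinned to 500 UMIs (14 and 10 cells). They were 4 and 5 with barcodes thinned before choosing (9 and 6 cells) and 1 and 5 with at least 500 genes (3 and 2 cells). With 3 rule UMIs the higher count was 12, and with 2 Siglech UMIs 9. The lower count was 18 without the hormone filter, 18 without the lineage condition and 31 in the Leiden cluster. Thinning to 300 UMIs, chosen after seeing the data, gave 12 and 4. The share difference of 0.477 points became 0.0535 with at least 500 genes and 0.0609 with barcodes thinned before choosing. Against other cells the 7 genes lower in HAMSAB and 12 in HAMS became 11 and 20 with equal weight per cell, and 23 and 22 thinned to 500 UMIs.

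Of list medians, nucleic acid sensing (−0.055) was 0.0547 without the hormone filter, 0.3 without the lineage condition, 0.432 in the Leiden cluster and 0.0631 with mitochondrial, ribosomal and Actb UMIs out of the total. Transcription factors (0.469) had 0.263 with 3 rule UMIs and 0.275 with equal weight. MHC class II (−0.167) had 0.126 without the lineage condition and −0.927 thinned to 300 UMIs.

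Of list sums, those without the lineage condition moved for MHC class II to −0.0461, immediate early genes to 0.201 and proliferation to −0.863. With at least 500 genes they were 0.12 for interferon-induced genes, 0.867 (opposite in direction) for MHC class II, −0.588 for MHC class I, −0.365 for the secretory pathway, 2.54 for inhibitory receptors, −1.27 for immediate early genes and −1.37 for survival. Thinned to 500 UMIs, nucleic acid sensing had −0.632 and immediate early genes 0.233. With barcodes thinned before choosing, pDC identity had −0.585, MHC class I 0.628, the secretory pathway 0.531 and inhibitory receptors −0.206. Thinned to 300 UMIs, cytokines had 1.0, MHC class II −0.864 and immediate early genes 0.269. With only the members inside the Siglech cluster, a setting also chosen after seeing the data, cytokines had 1.11 and immediate early genes 0.231.

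Single genes changed direction as follows. Malat1 had 0.0889 without the lineage condition, 1.63 with at least 500 genes and 0.103 in the Leiden cluster, Tspan13 −0.163 thinned to 500 UMIs and Alkbh5 0.737 with barcodes thinned before choosing. In HAMS pDCs over all other kept barcodes H2-Ab1 had 0.0684, Cd74 0.541 and Actb 0.154.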
